A study of Mus musculus with 44 samples.

Results

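Chromatin accessibility was followed at the genes of voltage-gated sodium and calcium channels in cultured mouse cortical neurons. The members were the autosomal protein-coding genes of the mouse build mm10 whose symbols start with Cacn, or with Scn, a number and a or b. This rule took 39 of 20665 genes, 14 Scn and 25 Cacn genes. Accessible intervals that overlapped a gene body or the 20 kb on each side were given to the nearest member. They fell into 1199 of the 223337 regions compared over the whole genome, of which 94 lay within 1 kb of a gene end and 1105 were distal, 873 of the distal regions within the gene.

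Voltage-gated sodium channels open on depolarization and carry the rising phase of the action potential. Each has a pore-forming alpha subunit and smaller beta subunits that tune its gating and its place in the membrane. Voltage-gated calcium channels turn depolarization into calcium entry, which drives transmitter release at terminals and signalling to the nucleus in the soma and dendrites. Their alpha1 subunits form the pore, and alpha2delta and beta subunits bring the pore to the surface. Several gamma genes encode proteins that mainly escort AMPA receptors.

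The neurons came from the cortex of embryos at E16.5 and were profiled by ATAC-seq, in which a transposase cuts accessible DNA. All cultures, depolarized ones included, had been silenced overnight with tetrodotoxin (TTX, a sodium channel blocker) and D-AP5 (an NMDA receptor blocker). There were 44 libraries in 22 groups of 2, in 3 experiments. The drug experiment, on neurons labelled wild type at 7 days in vitro (DIV7), combined 100 nM FHT1015, which the labels call an inhibitor of the BAF ATPase, or 0.1% DMSO with 10 or 30 min of treatment and with 50 mM KCl or no stimulation. The Arid2 experiment, also at DIV7, compared neurons infected with guide RNAs against Arid2 (Arid2KO), a subunit of the PBAF complex, with non-targeting (NT) neurons, each with KCl for 30 min or unstimulated. The DIV18 experiment held 5 genotypes: guides against the BAF subunit Smarcc2 (Smarcc2KO) with added Smarcc2 S586E, S586A or wild type (WT), with empty vector, and NT neurons, each with KCl for 30 min or unstimulated. Alanine at this serine cannot be phosphorylated, and glutamate is commonly used to mimic phosphate. The labels do not say whether the 2 libraries of a group came from separate cultures, so each p-value measures only the spread between these libraries. Peak lists hold no level of the Arid2 or Smarcc2 product, so neither knockout was checked here.

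In each library the autosomal intervals were ranked by the peak caller's −log10 p and the best 75000 were kept. The rank score of a region was log2 of 133009 divided by the rank of the best interval on it, so a score higher by 1 means a rank divided by 2, and 0 means that the region was not among the best 75000. The lowest score that a held region can have is 0.83. A region was called where limma gave an adjusted p under 0.05 over all tested regions of the experiment, and changes are differences of mean rank scores with their standard errors (SE). The scores are relative within a library, and a change in all cells cannot be told apart from a change in the share of cells with the region open. Read depth was unknown: the lists held 135590 to 282440 intervals and the background pileup was 0.942 to 8.39 reads per base. Gene ends of all 5 neuronal and all 5 excitatory markers had a median score above 0, against 0 of 5 for microglia, and inhibitory (4 of 5), astrocyte (4), oligodendrocyte (3), vascular (3) and progenitor (3) markers were also present. Gene ends of 6 early activity genes (Fos, Npas4, Nr4a1, Junb, Arc and Bdnf) served as a check of the stimulus: 12 of their 20 regions rose and 0 fell after 30 min of KCl in DMSO, and 20 of 21 rose at DIV18.

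The promoters of 5 channel genes are shown because they carry the results that follow: Cacna1b had the highest median score of all channel gene ends, and the other 4 overlap regions that rose after KCl at both times in DMSO. Each sequence is from RefSeq (GRCm38.p6, the mm10 assembly), runs from 250 bases before to 50 after a transcript start, and is printed on the gene's own strand. Capitals mark GGGCGG (the core of a GC box) and TGACG (a partial cAMP response element) on either strand. They lie at chr2:24763103-24763402 (minus strand, Cacna1b), chr9:45138374-45138673 (plus, Scn4b), chr9:107399630-107399929 (plus, Cacna2d2), chr2:52676094-52676393 (minus, Cacnb4) and chr15:98634517-98634816 (plus, an internal start of Cacnb3).
Cacna1b: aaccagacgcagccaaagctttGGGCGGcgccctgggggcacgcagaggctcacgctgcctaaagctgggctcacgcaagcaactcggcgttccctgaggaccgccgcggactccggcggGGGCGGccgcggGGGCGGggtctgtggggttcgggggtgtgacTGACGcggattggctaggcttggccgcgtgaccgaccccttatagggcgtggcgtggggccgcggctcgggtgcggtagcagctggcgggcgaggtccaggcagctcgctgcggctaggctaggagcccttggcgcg
Scn4b: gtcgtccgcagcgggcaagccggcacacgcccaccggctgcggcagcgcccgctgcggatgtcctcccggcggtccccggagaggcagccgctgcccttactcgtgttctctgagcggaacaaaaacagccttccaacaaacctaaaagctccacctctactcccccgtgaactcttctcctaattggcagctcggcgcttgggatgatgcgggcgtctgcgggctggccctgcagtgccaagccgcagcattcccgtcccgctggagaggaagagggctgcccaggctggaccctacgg
Cacna2d2: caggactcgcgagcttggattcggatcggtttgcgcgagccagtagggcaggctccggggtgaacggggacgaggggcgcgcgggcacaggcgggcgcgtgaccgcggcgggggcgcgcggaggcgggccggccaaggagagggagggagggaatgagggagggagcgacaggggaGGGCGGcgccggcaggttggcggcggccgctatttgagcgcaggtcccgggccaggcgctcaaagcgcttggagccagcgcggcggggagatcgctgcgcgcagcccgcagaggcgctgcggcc
Cacnb4: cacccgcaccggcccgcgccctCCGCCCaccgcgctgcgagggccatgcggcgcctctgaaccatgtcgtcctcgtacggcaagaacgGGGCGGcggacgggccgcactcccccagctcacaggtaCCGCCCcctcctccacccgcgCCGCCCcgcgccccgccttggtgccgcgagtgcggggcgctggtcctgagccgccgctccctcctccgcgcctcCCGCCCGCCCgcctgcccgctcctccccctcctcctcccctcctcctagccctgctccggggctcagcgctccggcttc
Cacnb3: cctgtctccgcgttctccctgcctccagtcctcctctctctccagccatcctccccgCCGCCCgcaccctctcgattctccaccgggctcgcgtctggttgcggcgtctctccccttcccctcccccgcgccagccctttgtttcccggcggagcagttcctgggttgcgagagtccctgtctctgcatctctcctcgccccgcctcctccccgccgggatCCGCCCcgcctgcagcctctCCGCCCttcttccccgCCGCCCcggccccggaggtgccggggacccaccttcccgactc

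These 300-base windows were GC rich, from 66.3% in Scn4b to 78.3% in Cacnb4. RefSeq gave 40 promoters for 29 of the 39 members. GGGCGG was in 15 of the 40, against 35.7% of all 32851 promoters on the autosomes and the X and Y chromosomes. TGACG was in 6 of the 40, against 20.8% of all, and the full palindrome TGACGTCA, which contains TGACG, was in 0 of the 40, against 1.79% of all. TGANTCA, the AP-1 motif, was in 1 of the 40 (Cacng5), against 7.81% of all, and TATAAA was in 2 (Cacna1d and Scn2a), against 13.6% of all. A match is a description of letters in a window and not of a bound factor.

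Of the sodium channel alpha genes, Scn8a (an axonal channel of mature neurons) had the highest gene-end score, with a median of 2.82 and a range of 1.59 to 4.25 over the 44 libraries. Scn3a (an embryonic form), Scn2a (the axonal channel of excitatory neurons) and Scn1a (the main alpha subunit of many interneurons) followed at medians of 2.06, 1.99 and 1.88, and their ranges overlapped. The 5′ end of Scn4a, the skeletal muscle channel, had a median of 1.67, and that of Scn9a, a channel of sensory neurons, 0.89. Scn7a (an atypical channel in sodium sensing), Scn10a and Scn11a (sensory neuron channels) had no gene-end region. The sodium beta genes had medians of 5.47 for Scn3b, 2.43 for Scn2b and 1.28 for Scn4b.

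Among the calcium channel pores, Cacna1b (N-type, at presynaptic terminals) had a median gene-end score of 5.66, a median rank of 2633.5, and a range of 4.81 to 6.57. Cacna1a (P/Q-type, also presynaptic) had a median of 4.84 at its best-ranked end (chr8:84639262-84639761), and Cacna1g (T-type, opening near rest) 4.05. The strands of Cacna1a and Cacna1g were not listed in the sources used, so these ends cannot be named as a start or a 3′ end. The other T-type genes were at 2.75 for Cacna1i and 0.98 for Cacna1h, whose best end is also an end of Tpsg1. Cacna1e (R-type) was at 1.37. The best-ranked end of Cacna1c, the main neuronal L-type gene, was its 3′ end, held in 3 of 44 libraries. Gene ends are the outer bounds of each gene, so transcript starts further inside a gene counted as distal. The best end of Cacna1d, also an L-type gene, was its 3′ end too, at 1.92, and that of Cacna1s, the muscle L-type gene, coincided with an end of Ascl5 at 3.31. Over gene ends and distal sites together, Cacna1c had 121 regions, the most of any member, Cacna2d3 90, Cacna1a 89 and Cacna1d 69. These are long genes: Cacna1c had 18.6 regions per 100 kb of the gene with its flanks, against 58.5 for the short gene Cacnb1.

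The accessory genes were mostly accessible at their ends. The alpha2delta genes Cacna2d3, Cacna2d1 and Cacna2d4 had medians of 3.61, 3.26 and 3.20, against 1.13 for Cacna2d2; Cacna2d1 and Cacna2d2 bind gabapentin. The beta genes were at 3.36 for Cacnb1 (shared with an end of Rpl19), 3.26 for Cacnb4, 3.01 for Cacnb2 and 1.56 for Cacnb3. The internal promoter window of Cacnb3, counted as distal, had a mean of 3.75 in unstimulated DMSO cultures at 10 min. Of the gamma genes, Cacng2 (stargazin, 3.53), Cacng4 (3.08) and Cacng3 (2.73) were above Cacng5 (1.79), Cacng6 (1.26) and Cacng8 (0). Cacng1, a muscle subunit, had no gene-end region, and Cacng7 had 12 regions in all. In all, 19 members had an end that every library held, and 31 gene-end and 96 distal regions were held by all 44 libraries.

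**Figure D1:**
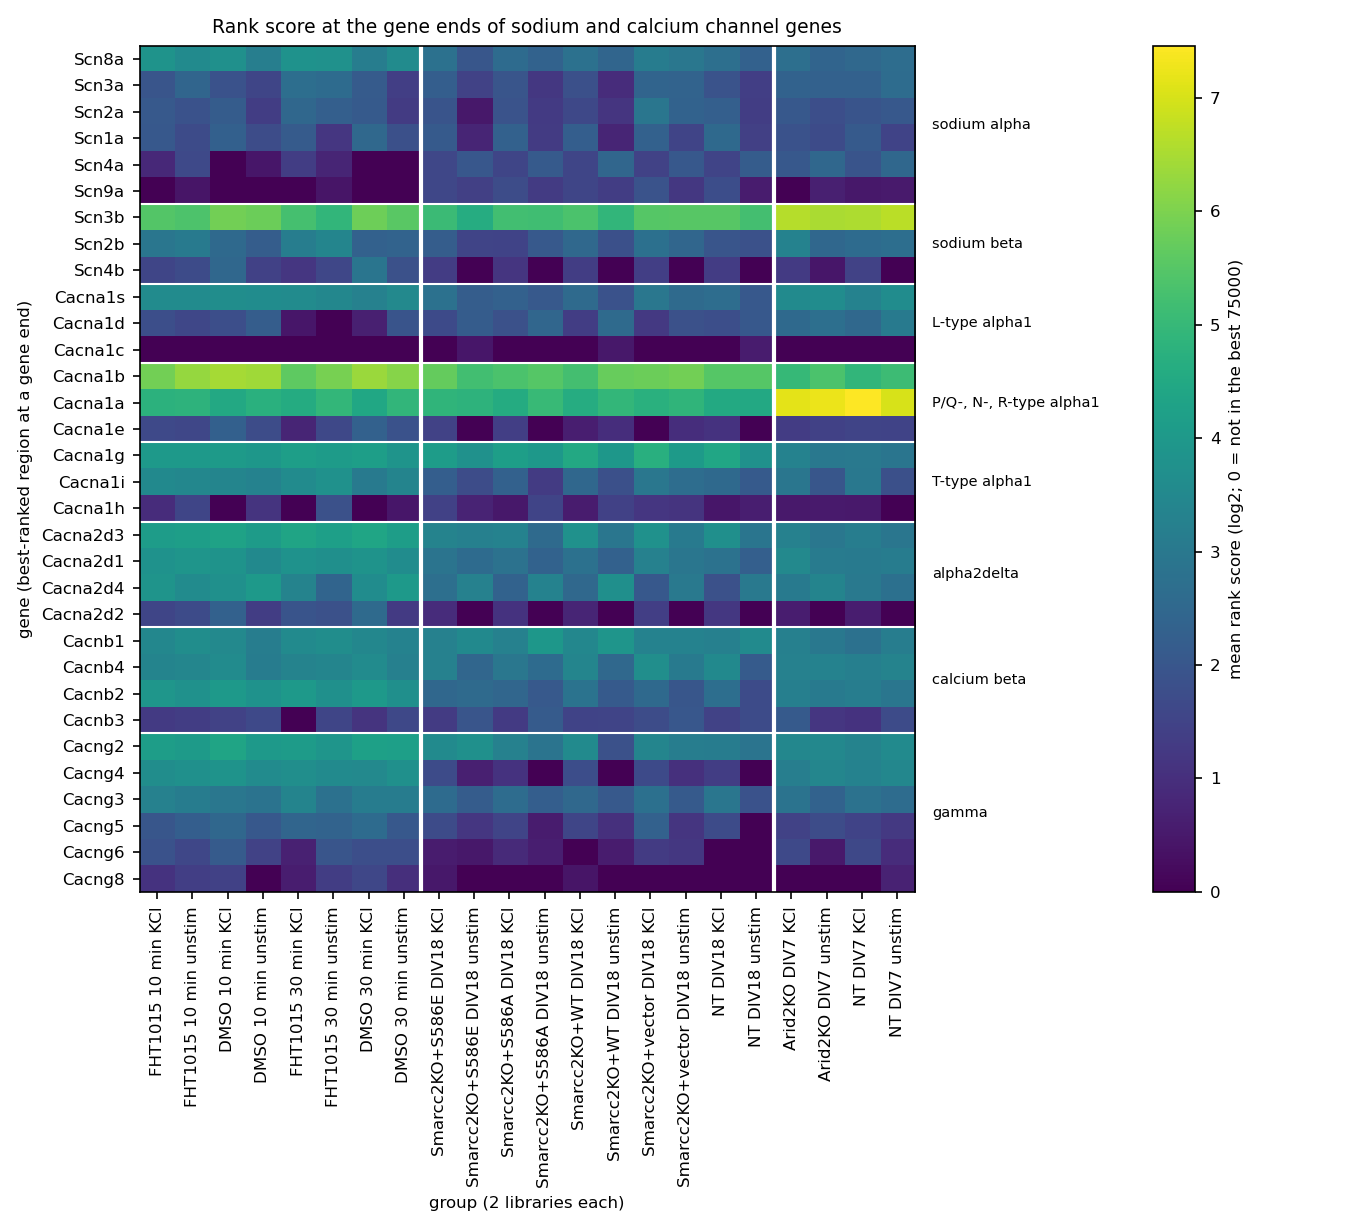
Mean rank score (log2 scale, colour) at the best-ranked gene end of 32 channel genes (rows, grouped by role) in the 22 groups of 2 libraries (columns, white lines between the 3 experiments). Cacna1b and Scn3b are high in all groups, the Cacna1a end is higher in the Arid2 experiment than in the others, and the Scn4b and Cacna2d2 ends are at 0 in unstimulated DIV18 groups.

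Depolarization of DMSO cultures for 10 min changed few channel regions. The 5′ ends of Scn4b, Cacna2d2, Scn2a and Cacnb4 and an internal promoter of Cacnb3 rose, while distal regions of Cacna2d1, Scn2a and Cacna2d4 and a region near Cacna1h fell. In all, 23 regions rose and 18 fell of 689 tested; the background is 5.41% of all tested regions called, against 5.95% of the channel regions, with 3.5% of all regions higher and 1.91% lower. At gene ends 10 of 84 rose and 1 fell, against backgrounds of 6.28% and 1.6%, and the median change was 0.24, against 0.06 over all gene-end regions. Of the 41 calls, 9 were also made with the same sign when summits were ranked one by one in place of intervals, and those 9 are the regions named here. That ranking gave 16 higher and 44 lower, so the split of directions depends on it. Leaving out single libraries lowered the 41 calls to 15 without unstimulated replicate 1, 18 without unstimulated replicate 2, 22 without KCl replicate 1 and 21 without KCl replicate 2.

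After 30 min of KCl in DMSO, 56 channel regions rose and 62 fell of 689 tested, 17.1% called against a background of 18.1%. At gene ends 17 of 84 rose and 4 fell, against backgrounds of 15.8% and 6.9%, with a median change of 0.11, against 0.03 over all. By role, 16 sodium alpha regions rose and 7 fell of 82 tested, and 15 calcium beta regions rose and 7 fell of 101. Conversely, 5 alpha2delta regions rose and 17 fell of 127, and 3 L-type regions rose and 11 fell of 119. Over all regions 10.7% rose and 7.35% fell. Of 605 distal channel regions 39 rose and 58 fell, against 9.52% and 7.46% of all distal regions. Ranking of summits gave 33 higher and 89 lower. The 118 calls fell to 73 without KCl replicate 1, 78 without KCl replicate 2, 79 without unstimulated replicate 2 and 88 without unstimulated replicate 1.

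Scn4b encodes a beta subunit linked to resurgent sodium current. Its 5′ end (chr9:45138512-45139011) scored 2.97 and 2.84 after 30 min of KCl in DMSO, against 1.89 and 1.83 unstimulated. The change was 1.04 ± 0.21 (SE; adjusted p = 0.0074). At 10 min the scores were 2.39 and 2.60 with KCl, against 1.46 and 1.44 unstimulated, a change of 1.05 ± 0.21 (adjusted p = 0.02). All KCl libraries were above all unstimulated ones at each time. The 10 min call was lost without any 1 of its 4 libraries (adjusted p up to 0.106), and the 30 min call without KCl replicate 1 (adjusted p = 0.052). At DIV18 the same end scored 1.11 to 1.61 with KCl in the 10 libraries of the 5 genotypes, against 0 in all 10 unstimulated libraries, and it was called in each genotype, with changes of 1.15 to 1.38. Its ranks there were 43710 to 61663 with KCl, against 85558 to 174944 unstimulated, so the unstimulated lists held it but outside the best 75000.

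The 5′ end of Cacna2d2 (chr9:107399647-107400146) scored 2.35 and 2.80 after 30 min of KCl in DMSO, against 1.11 and 1.42 unstimulated (change 1.31 ± 0.18, adjusted p = 0.00093). At 10 min it scored 2.29 and 2.32 with KCl, against 1.38 and 1.33 unstimulated (0.95 ± 0.18, adjusted p = 0.016, up to 0.084 without any 1 library). At DIV18 it scored 1.41 and 1.02 in NT neurons with KCl, against 0 and 0 unstimulated, which missed the threshold (1.21 ± 0.38, adjusted p = 0.06).

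The 5′ end of Scn2a (chr2:65621132-65621631) scored 2.04 and 2.31 after 10 min of KCl, against 1.17 and 1.53 unstimulated (0.83 ± 0.16, adjusted p = 0.02), and also rose by 0.83 at 30 min (adjusted p = 0.0072). The 10 min call was lost without unstimulated replicate 1 or KCl replicate 2 (adjusted p up to 0.11), and the 30 min call without KCl replicate 2 (adjusted p = 0.054). Cacnb4 encodes a beta subunit whose loss causes ataxia and seizures in mice. A pair of windows at its 5′ end (chr2:52675398-52675897 and chr2:52675938-52676437) shared 1 interval in DMSO and scored 3.55 and 3.62 at 10 min of KCl, against 3.16 and 3.08 unstimulated (0.47 ± 0.10, adjusted p = 0.024), and rose by 0.36 at 30 min (adjusted p = 0.028). At DIV18 the second window scored 3.56 and 3.49 in NT neurons with KCl, against 1.98 and 2.30 unstimulated (1.39 ± 0.22, adjusted p = 0.0024). The internal promoter window of Cacnb3 (chr15:98634721-98635220) scored 4.24 and 4.16 at 10 min of KCl, against 3.72 and 3.78 unstimulated (0.45 ± 0.08, adjusted p = 0.0095), and rose by 0.36 at 30 min. The DMSO calls at Cacnb4 and Cacnb3 were each lost without at least 1 library, with adjusted p up to 0.172 and 0.069.

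Away from gene ends, a region within Scn1a (chr2:66408524-66409023) rose after 30 min of KCl in DMSO: 2.48 and 2.52 with KCl, against 0 and 0 unstimulated (2.50 ± 0.46, adjusted p = 0.0049). It rose at DIV18 too, with 2.24 and 2.37 in NT neurons with KCl, against 0 and 0.93 unstimulated (1.84 ± 0.35, adjusted p = 0.0061). The DIV18 call was lost without unstimulated replicate 1. At summits the rises were 1.53 in DMSO and 1.49 at DIV18. With KCl, the same interval also covered the Scn1a window at chr2:66409254-66409753, so these windows are not separate results. A region in Cacnb2 (chr2:14612635-14613134) rose by 1.84 ± 0.45 and a region beyond Cacnb2 (chr2:14995974-14996473) by 1.07 ± 0.17; the first call was lost without 3 of its 4 libraries in turn (adjusted p up to 0.121). A window 1788 bp inside Scn3b (chr9:40271004-40271503) rose by 4.96 ± 0.37 by intervals but by 1.09 at summits. In the KCl DMSO libraries it carried the same scores as the gene end, 5.96 and 5.68, because 1 interval covered both. A region 11445 bp from Cacnb1, at an end of Arl5c, rose by 3.78 ± 0.69 (1.19 at summits).

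Several regions inside calcium channel genes fell after 30 min of KCl in DMSO. A region in Cacna1b (chr2:24668474-24668973) scored 1.96 and 2.03 with KCl, against 3.25 and 3.06 unstimulated (−1.16 ± 0.14, adjusted p = 0.00033). A region in Cacna2d3 (chr14:29229968-29230467) was at 0 and 0 with KCl, against 1.82 and 1.85 unstimulated (−1.83 ± 0.25), and a region in Cacng5 (chr11:107876862-107877361) was at 1.05 and 1.11, against 2.33 and 2.02 (−1.09 ± 0.15). Regions at an end of Tmem115, 4350 bp from Cacna2d2, and at an end of Tekt4, 17902 bp from Cacna1h, fell by 1.46 ± 0.26 and 0.95 ± 0.14; both are ends of genes that are not channel genes. At 10 min, the Tekt4 end fell by 0.62 ± 0.14, and distal regions of Cacna2d1, Scn2a and Cacna2d4 fell by 0.62 ± 0.10, 0.59 ± 0.15 and 0.32 ± 0.06. Of these 4 calls, only that at Cacna2d1 held without each single library; the others rose to an adjusted p of at most 0.213.

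In the Arid2 experiment, 0 of 562 channel regions were called after KCl in NT neurons (background 0.209%; 53 at an unadjusted p under 0.05; smallest adjusted p 0.07) and 0 of 562 between Arid2KO and NT neurons (background 0.102%; 35 at an unadjusted p under 0.05). Ranking of summits and every other alternative also gave 0 for Arid2KO except leaving out NT unstimulated replicate 1 (2) or replicate 2 (1); for KCl in NT neurons the best 30000 intervals gave 8, and leaving out a library gave up to 2. Of the gene ends of the early activity genes, 8 of 20 rose after KCl in these NT neurons. Arid2KO neurons after KCl had 1 call, the region near Cacna1a beside Ier2 (4.48, adjusted p = 0.0054, background 0.203%).

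In NT neurons at DIV18, KCl raised 40 channel regions and lowered 34 of 796 tested, 9.3% called against a background of 11.3% (7.48% higher, 3.77% lower). At gene ends 14 of 79 rose and 5 fell, against backgrounds of 12.6% and 2.55%, with a median change of 0.46, against 0.34 over all; 9 of 88 sodium alpha regions rose and 0 fell. Ranking of summits gave 20 higher and 54 lower. The count was 27 without unstimulated replicate 1, 24 without KCl replicate 1 and 27 without KCl replicate 2. The largest rise was 19563 bp from an end of Cacna1a (chr8:84659814-84660313), at a region nearest to Ier2, an early response gene. This region scored 6.73 and 6.46 with KCl, against 1.90 and 2.18 unstimulated (4.55 ± 0.41, adjusted p = 3.1e-05). It rose by 3.79 to 4.52 in the other 4 genotypes. Inside Cacna1a, a region at chr8:84494584-84495083 scored 4.72 and 4.18 with KCl, against 2.36 and 2.35 unstimulated (2.10 ± 0.33), and rose in all 5 genotypes. A region at chr8:84529526-84530025, also in Cacna1a, went the other way: 1.07 and 1.47 with KCl, against 2.82 and 2.60 unstimulated (−1.44 ± 0.25).

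Other distal regions that rose at DIV18 lay in Cacng3 (1.85 ± 0.39) and Cacna1c (chr6:119081665-119082164, 1.75 ± 0.42). Regions that fell lay in Cacna1b (chr2:24685292-24685791, −1.62 ± 0.25), at Cacna1g (−1.78 ± 0.45 inside and −1.62 ± 0.38 beyond the gene), in Cacna2d3 (−1.70 ± 0.51) and again in Cacna1a (−1.48 ± 0.32). Of these, only the Cacna1b call held without each single library; the highest adjusted p of the others was 0.269.

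**Figure D2:**
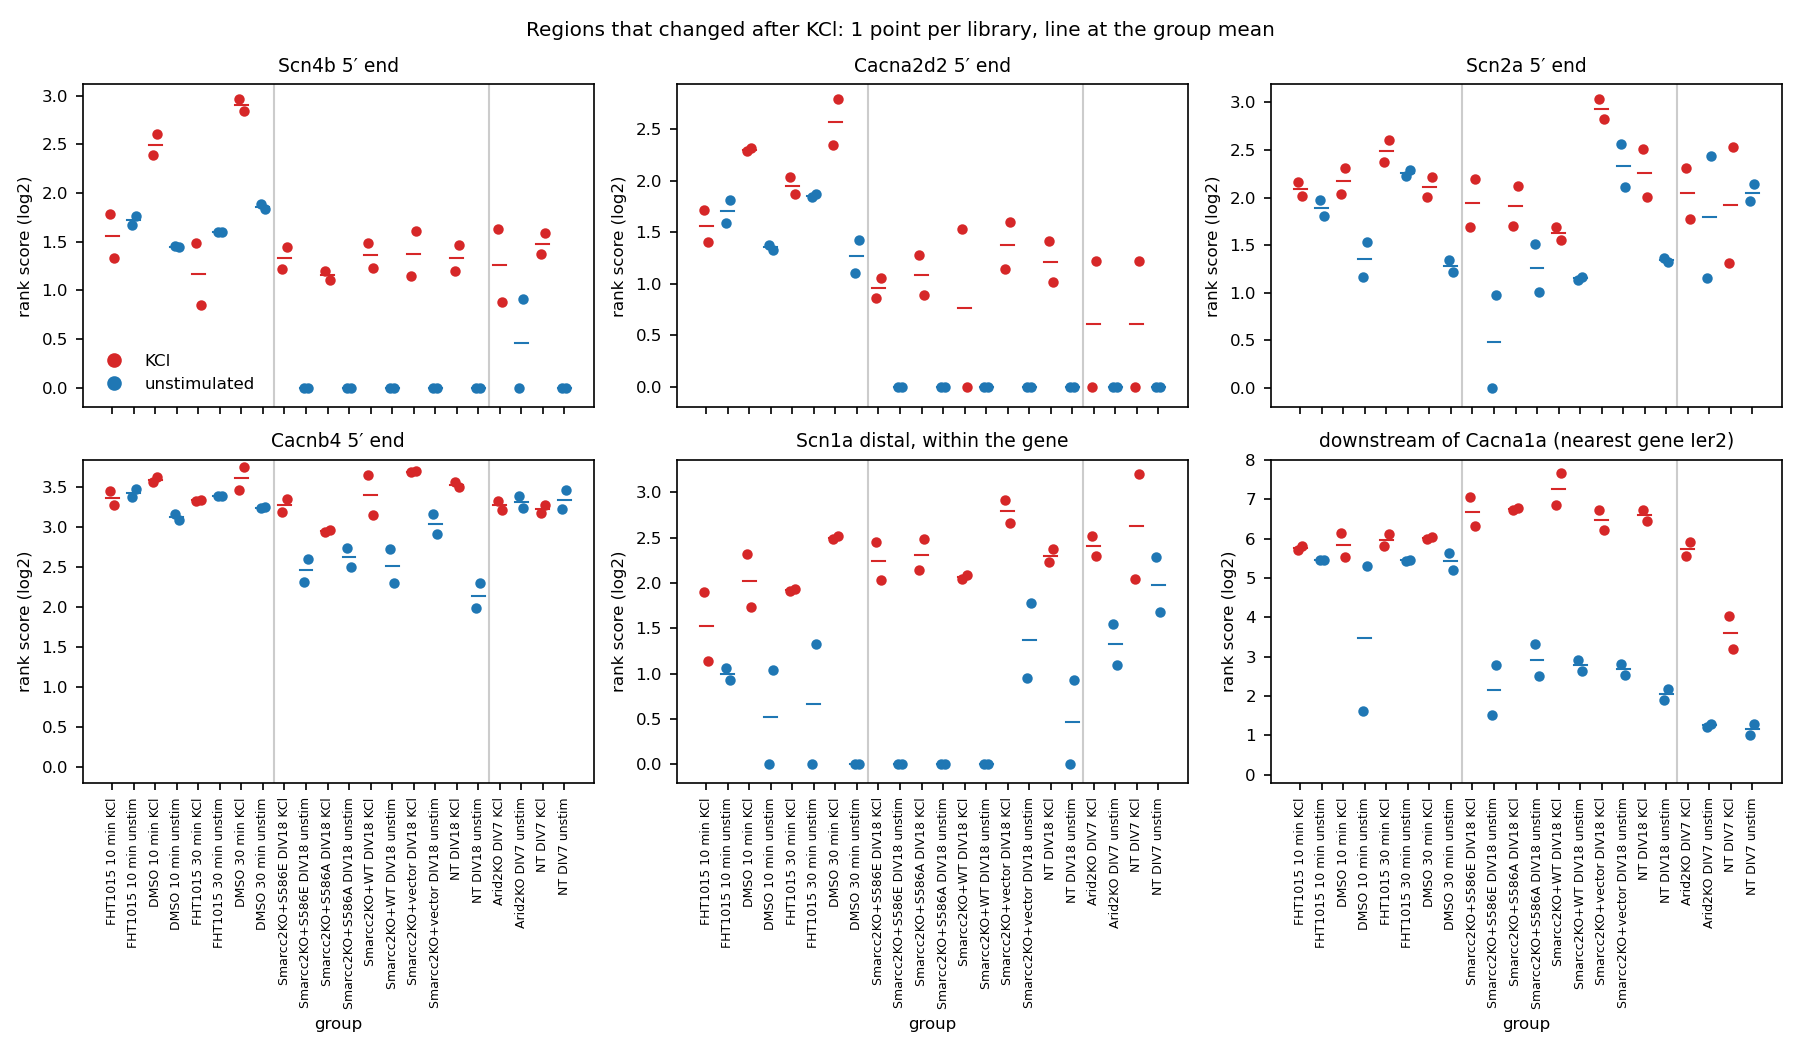
Rank score (log2 scale) of 6 channel regions in every library (points; red KCl, blue unstimulated; line at the mean of the 2 libraries), by group. Scn4b is at 0 in all unstimulated DIV18 libraries and at 1.11 to 1.61 with KCl, and the region beside Ier2 reaches 6.73 and 6.46 in NT neurons with KCl, against 1.90 and 2.18.

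Taking both times and states together, 8 FHT1015 libraries were compared with 8 DMSO libraries, and 179 channel regions rose and 210 fell of 689 tested with FHT1015, 56.5% called against a background of 58.7%. At gene ends 22 of 84 rose and 19 fell, against backgrounds of 33.9% and 15.9%. By role, 19 L-type regions rose and 45 fell of 119, and 16 sodium beta regions rose and 4 fell of 34, against 27.6% and 31.1% over all regions. The lists held 146132 to 222230 intervals with FHT1015, against 232155 to 282440 with DMSO, with no overlap. With the number of intervals in the model, 13 of the 389 calls were left, so drug and list length cannot be told apart here. Summits gave 248 calls, 93 higher and 155 lower.

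The region in Cacna1h (chr17:25418832-25419331) scored 0 to 1.89 in the 8 FHT1015 libraries, with a median of 0.97, against 2.18 to 3.04 in the 8 DMSO libraries, with a median of 2.57 (−1.78 ± 0.14, adjusted p = 6.7e-06), and the Tekt4 end near Cacna1h fell by 1.61 ± 0.07. The FHT1015 and DMSO libraries did not overlap at either region, but at the Tekt4 end the highest FHT1015 and the lowest DMSO score both rounded to 1.81. Both calls held with the number of intervals in the model (adjusted p = 0.04 and 0.037). A region in Cacna1e (chr1:154500397-154500896) scored 1.49 to 2.73 with FHT1015, with a median of 2.02, against 3.06 to 3.49 with DMSO, with a median of 3.34 (−1.24 ± 0.08), again with no overlap, and a region in Cacna1d (chr14:30164204-30164703) fell by 1.22 ± 0.10. The gene ends of Cacna1b and Scn3b, the highest of the set, fell by 0.39 ± 0.07 and 0.50 ± 0.09. A region in Cacng4 (chr11:107785676-107786175) scored 1.37 to 2.10 with FHT1015, with a median of 2.00, against 0 to 1.18 with DMSO, with a median of 0.43 (1.42 ± 0.17). A region in Scn4a rose by 1.23 ± 0.15 by intervals but by 0.31 at summits. The Scn2a 5′ end rose by 0.45 ± 0.08 and the Scn3a end (chr2:65567403-65567902) by 0.69. At the last Cacna1d region, 3 windows near Cacna1s beside Kif21b (changes of −1.67, −1.55 and −1.48), a region in Cacng4 (chr11:107777459-107777958, −1.24 ± 0.47), the Arl5c end (1.20 ± 0.35) and the Scn3b window (−2.23 ± 0.19), the FHT1015 and DMSO libraries overlapped. At each of the 3 Cacna1s windows the median was 4.96 with FHT1015, against 5.04 with DMSO. With the number of intervals in the model the changes were −0.44, 0.38 and 0.09 there and 2.20 at this last Cacng4 region, none of them called. In that model the calls at Cacna1e, Cacna1d, Scn4a and the Scn2a 5′ end were lost too (adjusted p = 0.073, 0.134, 0.188 and 0.294). So were those at the Cacng4 region that rose, the Arl5c end and the Scn3b window (0.257, 0.311 and 0.058).

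The KCl response at 30 min differed between FHT1015 and DMSO at 139 of 689 channel regions, 72 with a higher and 67 with a lower response under FHT1015 (20.2% called, background 20%, of which 9.85% higher and 10.1% lower). Summits gave 62 higher and 30 lower, and regions with a mean score of at least 1 gave 57 and 15. By role, 22 alpha2delta regions were higher and 8 lower of 127, 18 L-type regions were higher and 3 lower of 119, 2 sodium alpha regions were higher and 10 lower of 82, and 1 sodium beta region was higher and 10 lower of 34. At gene ends 2 were higher and 15 lower of 84 (backgrounds 2.5% and 12.9%), with a median of −0.34, against −0.16 over all.

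At the Scn4b 5′ end, 30 min of KCl gave 1.49 and 0.85 with FHT1015, against 1.60 and 1.60 unstimulated with FHT1015, where DMSO cultures rose; the difference of the responses was −1.48 ± 0.29 (adjusted p = 0.0057). At the Cacna2d2 5′ end, KCl gave 2.03 and 1.87 with FHT1015, against 1.85 and 1.87 unstimulated with FHT1015, and the difference of the responses was −1.21 ± 0.25 (adjusted p = 0.008). In DMSO the KCl libraries stood above the unstimulated ones at both ends, and in FHT1015 they were below them at Scn4b and close to them at Cacna2d2. At several distal regions the response was higher with FHT1015. The region in Cacna2d3 at chr14:29062836-29063335 scored 1.85 and 1.90 with KCl and FHT1015, against 0 and 0 unstimulated with FHT1015, while in DMSO it scored 1.51 and 1.48 with KCl, against 2.31 and 2.05 unstimulated (difference 2.56 ± 0.19, adjusted p = 1.6e-05). A region in Cacna1g (chr11:94428371-94428870) scored 2.31 and 2.07 with KCl and FHT1015, against 0 and 0 unstimulated with FHT1015. A region in Cacna2d2 (chr9:107484328-107484827) scored 1.94 and 2.11, against 0 and 0.88. In DMSO, KCl changed these regions by −0.14 ± 0.17 and −0.50 ± 0.25. FHT1015 differed from DMSO there by 0.04 and −0.09 with KCl, and by −2.29 and −2.17 unstimulated.

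In Smarcc2KO neurons at DIV18, more regions were lower than higher, among channel regions as among all regions. Between Smarcc2KO with vector and NT, 30 of 796 regions rose and 54 fell, 10.6% called against a background of 9.88%, with 3.87% higher and 6.01% lower over all regions. L-type genes had 4 regions higher and 18 lower of 153, and sodium alpha genes 2 higher and 11 lower of 88; of the 81 regions of Cacna1c, 1 rose and 9 fell. At gene ends 5 rose and 2 fell of 79, against backgrounds of 3.97% and 1.21%, and of 717 distal regions 25 rose and 52 fell, against 3.85% and 7.1% of all. The lists held 165089 to 215071 intervals in Smarcc2KO with vector, against 216877 to 266049 in NT, with no overlap, and 45 regions were called with the number of intervals in the model, 22 higher and 23 lower. The count was 40 without NT unstimulated replicate 1, 38 and 48 without NT KCl replicates 1 and 2, 43 without vector unstimulated replicate 2, and 47 without vector KCl replicate 1 or 2. The WT add-back against vector raised 34 regions and lowered 33 (8.42%, background 7.27%, of which 3.83% higher and 3.45% lower); without each of the 8 libraries in turn the count was 34 to 42, of which 29 to 35 were among these 67, each count below 67 by more than 1.5 times. The knockout and the add-back comparison share the vector libraries, so their values are given side by side.

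A region 11597 bp upstream of Cacna2d2 (chr9:107387637-107388136) scored 0, 0.83, 2.12 and 1.00 in vector libraries (here and below the 2 KCl libraries precede the 2 unstimulated ones), against 2.30, 2.82, 2.93 and 2.51 in NT (−1.65 ± 0.31), and 2.65, 2.37, 3.44 and 2.93 with WT Smarcc2 (1.86 ± 0.31 against vector). Every vector library was below every NT and WT library, and both calls held without each single library and with the number of intervals in the model. A region near Cacng5 (chr11:107867401-107867900, −1.31 ± 0.23 and 1.25 ± 0.23) also fell in the knockout and rose with WT Smarcc2. So did regions in Cacna2d3 (chr14:29435171-29435670, −1.33 ± 0.16 and 1.13 ± 0.16) and Cacna1c (chr6:118753784-118754283, −1.15 ± 0.26 and 1.12 ± 0.26). The Cacna1c calls were lost without 3 and 4 of 8 libraries in turn. With the number of intervals in the model, both calls were lost at Cacng5 (adjusted p = 0.103 and 0.051) and at Cacna1c (0.271 and 0.126). Both were kept at Cacna2d3 (0.026 and 0.019).

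Other regions that fell in the knockout lay in Cacna1d (chr14:30113377-30113876, −1.62 ± 0.29), Cacnb2 (−1.53 ± 0.29), Cacna1c (chr6:118621845-118622344, −1.30 ± 0.30) and Scn10a (−1.22 ± 0.33); the last 2 were lost without 4 and 5 of 8 libraries (adjusted p up to 0.062 and 0.122). Regions in Cacnb4 (1.30 ± 0.36) and Cacna1i (1.14 ± 0.32) rose; the Cacna1i call was lost without any 1 of 8 libraries and the Cacnb4 call without 6 of them (adjusted p up to 0.129 and 0.136). WT Smarcc2 against vector raised regions at Cacna1g (1.63 ± 0.31), Cacna2d2 (chr9:107384389-107384888, 1.60 ± 0.28), Scn4b (1.25 ± 0.33) and Cacna1d (chr14:30318147-30318646, 1.07 ± 0.25), and lowered a region in Cacna1a (−1.38 ± 0.35). Of these 5, the calls at Scn4b, Cacna1d and Cacna1a were lost without single libraries. With the number of intervals in the model, the Scn4b call was lost (adjusted p = 0.086). Among the knockout calls of this paragraph, those at Cacna1d, Scn10a and Cacna1i were lost in that model (adjusted p = 0.052, 0.121 and 0.107).

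The gene ends of Scn2a and Scn3a were lower with WT Smarcc2 than with vector. The Scn2a 5′ end scored 1.69, 1.56, 1.14 and 1.17 with WT Smarcc2, against 3.04, 2.83, 2.56 and 2.11 with vector (−1.24 ± 0.25, adjusted p = 0.011). The Scn3a end scored 1.82, 1.82, 0.96 and 0.96 with WT, against 2.67, 2.16, 2.18 and 2.56 with vector (−1.005 ± 0.189, adjusted p = 0.009), and it rose by 0.75 in the knockout against NT (adjusted p = 0.027). At both ends every WT library was below every vector library.

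**Figure D3:**
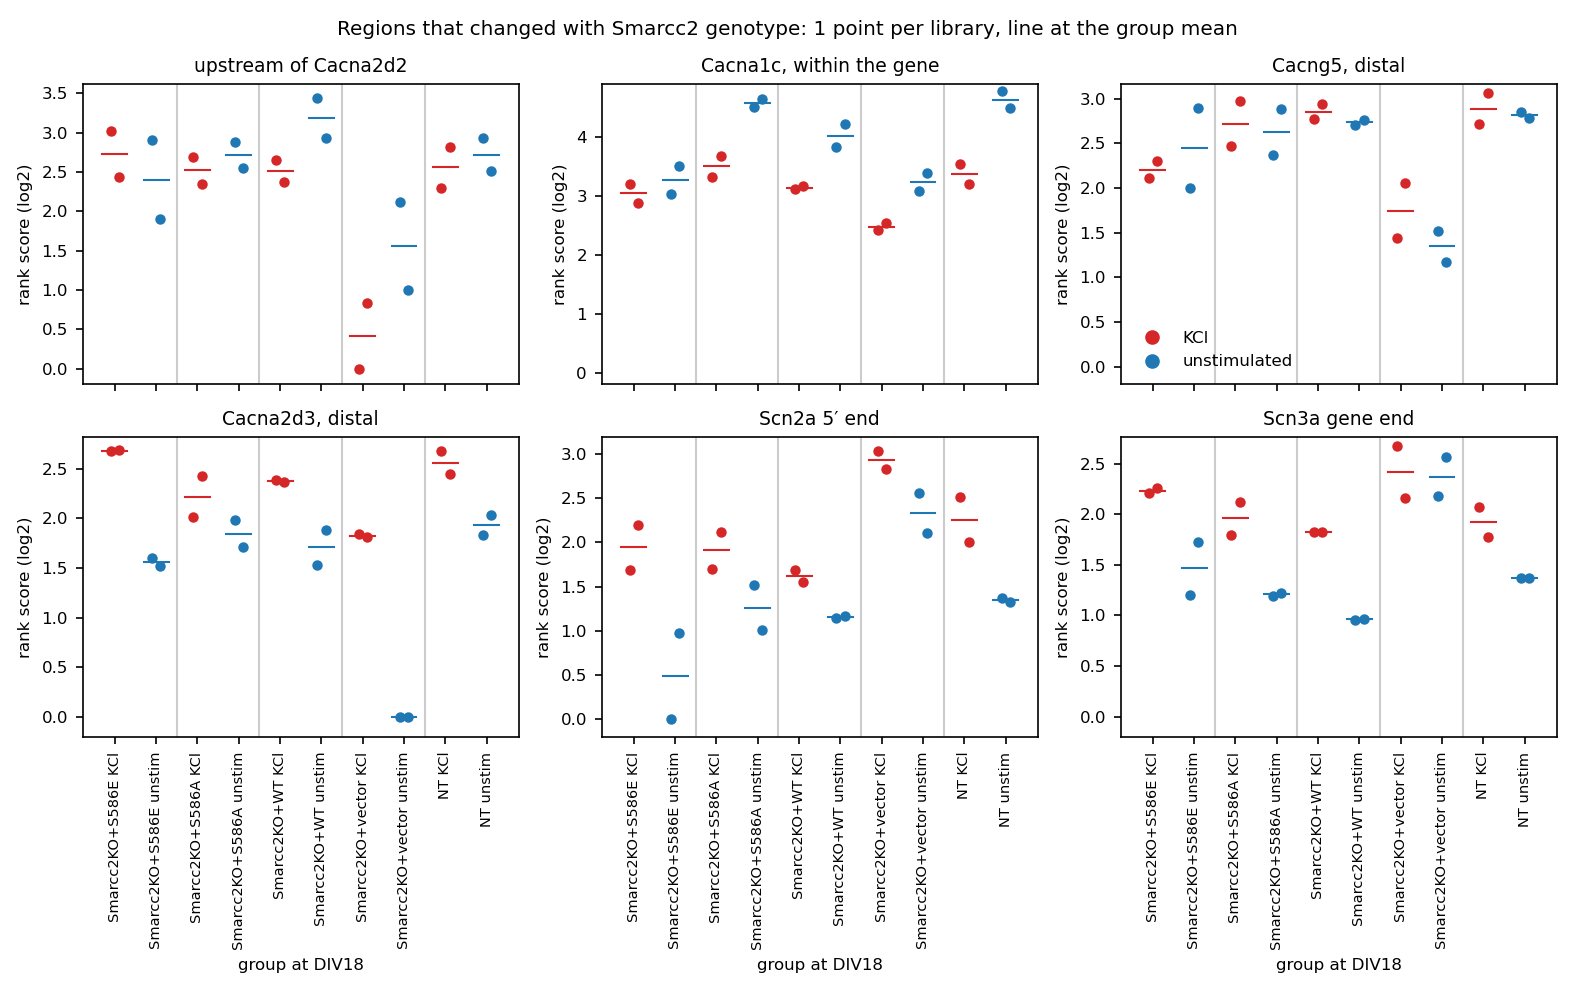
Rank score (log2 scale) of 6 channel regions in the 20 libraries at DIV18 (points; red KCl, blue unstimulated; line at the mean of the 2 libraries), by genotype. The region upstream of Cacna2d2 lies at 2.12 or lower in the 4 vector libraries and higher in all NT and WT libraries, and the Scn2a and Scn3a ends are lower with WT than with vector.

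S586E and S586A differed at few channel regions: 3 rose and 3 fell of 796 in S586E against S586A (0.754%, background 0.683%). The region in Cacna1c at chr6:118632439-118632938 scored 3.21, 2.89, 3.03 and 3.51 in S586E, against 3.33, 3.69, 4.51 and 4.64 in S586A (−0.88 ± 0.16, adjusted p = 0.034), with groups that overlapped. A region in Cacng4 (chr11:107755449-107755948) scored 0.85, 1.57, 1.61 and 2.01 in S586E, against 0, 0.94, 0 and 0 in S586A (1.28 ± 0.26, adjusted p = 0.045). Each call was lost without 6 of 8 libraries in turn (adjusted p up to 0.123 and 0.167), and the count was 13 without S586E unstimulated replicate 2, 5 without S586E KCl replicate 1, and 1 or 2 without each of the other 6 libraries.

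The 2 ages also differed widely. In unstimulated NT neurons, 179 regions rose and 127 fell at DIV18 against DIV7 of 745 tested, 41.1% called against a background of 41.2%, with 21.8% higher and 19.4% lower over all regions. At gene ends 13 of 75 rose and 24 fell, against backgrounds of 14.8% and 17.2%, and of 670 distal regions 166 rose and 103 fell, against 23.4% and 19.9% of all. The median change was −0.23 at gene ends and 0.33 at distal sites of channel genes, against −0.03 and 0 over the gene-end and distal regions of the genome. Among P/Q-, N- and R-type genes 42 regions rose and 13 fell of 130, against 17 higher and 31 lower of 107 among alpha2delta genes. By gene, 23 regions of Cacna1a rose and 3 fell, of 89 regions in all, tested or not. Of Cacnb1 15 rose and 0 fell of 36, of Scn8a 7 rose and 0 fell of 38. Of Cacna2d3 7 rose and 15 fell of 90. A Cacnb1 region that rose is nearest to Stac2. Neighbouring windows can share 1 interval, so the regions of a gene are not independent. The 2 ages came from separate experiments, and NT lists held 216877 to 266049 intervals at DIV18, against 144923 to 188379 at DIV7, so age, experiment and list length cannot be told apart; with the number of intervals in the model 0 regions were called. Markers of cell types moved with age too. The summed gene-end score of the 5 inhibitory markers was 1.57 and 1.70 in unstimulated NT libraries at DIV18, against 11.3 and 14.1 at DIV7, with Gad1, Gad2, Slc32a1 and Dlx1 at 0 at DIV18. The sum of the 5 oligodendrocyte markers was 6.70 and 7.80, against 4.68 and 4.83, with Mbp at 2.76 and 2.78, against 0 and 0, and with Sox10 and Mog at 0 at both ages. The excitatory marker Slc17a7 was at 3.14 and 3.84, against 1.15 and 0, while the sum of the 5 excitatory markers overlapped between the ages. The part of these markers in the age differences was not tested.

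The region in Cacna1c at chr6:118632439-118632938, 45199 bp inside the gene, scored 4.78 and 4.49 in NT neurons at DIV18, against 0 and 0 at DIV7 (4.63 ± 0.20, adjusted p = 0.00026), and it was at 0 in all 24 libraries at DIV7. Within DIV18 it fell after KCl in NT neurons (−1.26 ± 0.23) and in Smarcc2KO with vector (−1.15 ± 0.16 against NT). The region in Cacna1b that fell after KCl at DIV18 scored 3.91 and 3.84, against 0 and 0 at DIV7 (3.88 ± 0.17), and it also fell in the knockout (−0.96 ± 0.18). In Scn8a, a region at chr15:100990293-100990792 scored 4.10 and 3.90 at DIV18, against 0.84 and 0 at DIV7 (3.58 ± 0.50). Regions in Cacnb4 (chr2:52499959-52500458, 3.21 ± 0.18), beside Cacna1g (chr11:94404562-94405061, 3.57 ± 0.20), near Cacnb1 but nearest to Stac2 (4.04 ± 0.34) and near Cacna1s beside Igfn1 (3.26 ± 0.41) were likewise higher. A region in Cacnb2 rose by 3.70 ± 0.16, but by 0.92 at summits. Another Cacna1c region (chr6:118976762-118977261) rose by 3.50 ± 0.81, but its change was −1.54 with the number of intervals in the model. None of the age differences in this paragraph was called in that model. The knockout differences at the first Cacna1c region and at the Cacna1b region were not called in it either (adjusted p = 0.051 and 0.18).

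In unstimulated NT neurons more channel gene ends were called lower than higher at DIV18. With KCl, 10 of 75 gene ends rose and 11 fell at DIV18 against DIV7 (backgrounds 21.2% and 8.74%), with a median change of 0.14, against 0.29 over all. Cacng4, whose product escorts AMPA receptors, was at 0 and 0 at its best gene end in unstimulated NT neurons at DIV18, against 3.49 and 3.43 at DIV7 (−3.46 ± 0.21, adjusted p = 0.00044). All 3 of its regions at that end fell, and 1 of the 2 at the other end (chr11:107730907-107731406) rose by 1.51 ± 0.41. The windows at chr11:107793681-107794180 and chr11:107794547-107795046 shared 1 interval at DIV7, so their falls are not separate results (−2.80 and −1.39 at summits). The best-ranked Cacna1a end (chr8:84639262-84639761) scored 4.30 and 4.70 at DIV18, against 6.69 and 7.35 at DIV7 (−2.52 ± 0.26). In the 16 drug libraries at DIV7 it was also 4.32 to 5.05. The high values were therefore those of the Arid2 experiment and not of all libraries of that age. Likewise the Scn3b end scored 5.45 and 5.02 at DIV18, against 6.84 and 6.54 at DIV7 (−1.45 ± 0.22), with 4.85 to 5.98 in the drug libraries. The Cacnb4 5′ end fell by 1.20 ± 0.18. A distal region in Cacna2d1 (chr5:16134212-16134711) was at 0 and 0.86 at DIV18, against 3.72 and 3.45 at DIV7 (−3.16 ± 0.31).

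**Figure D4:**
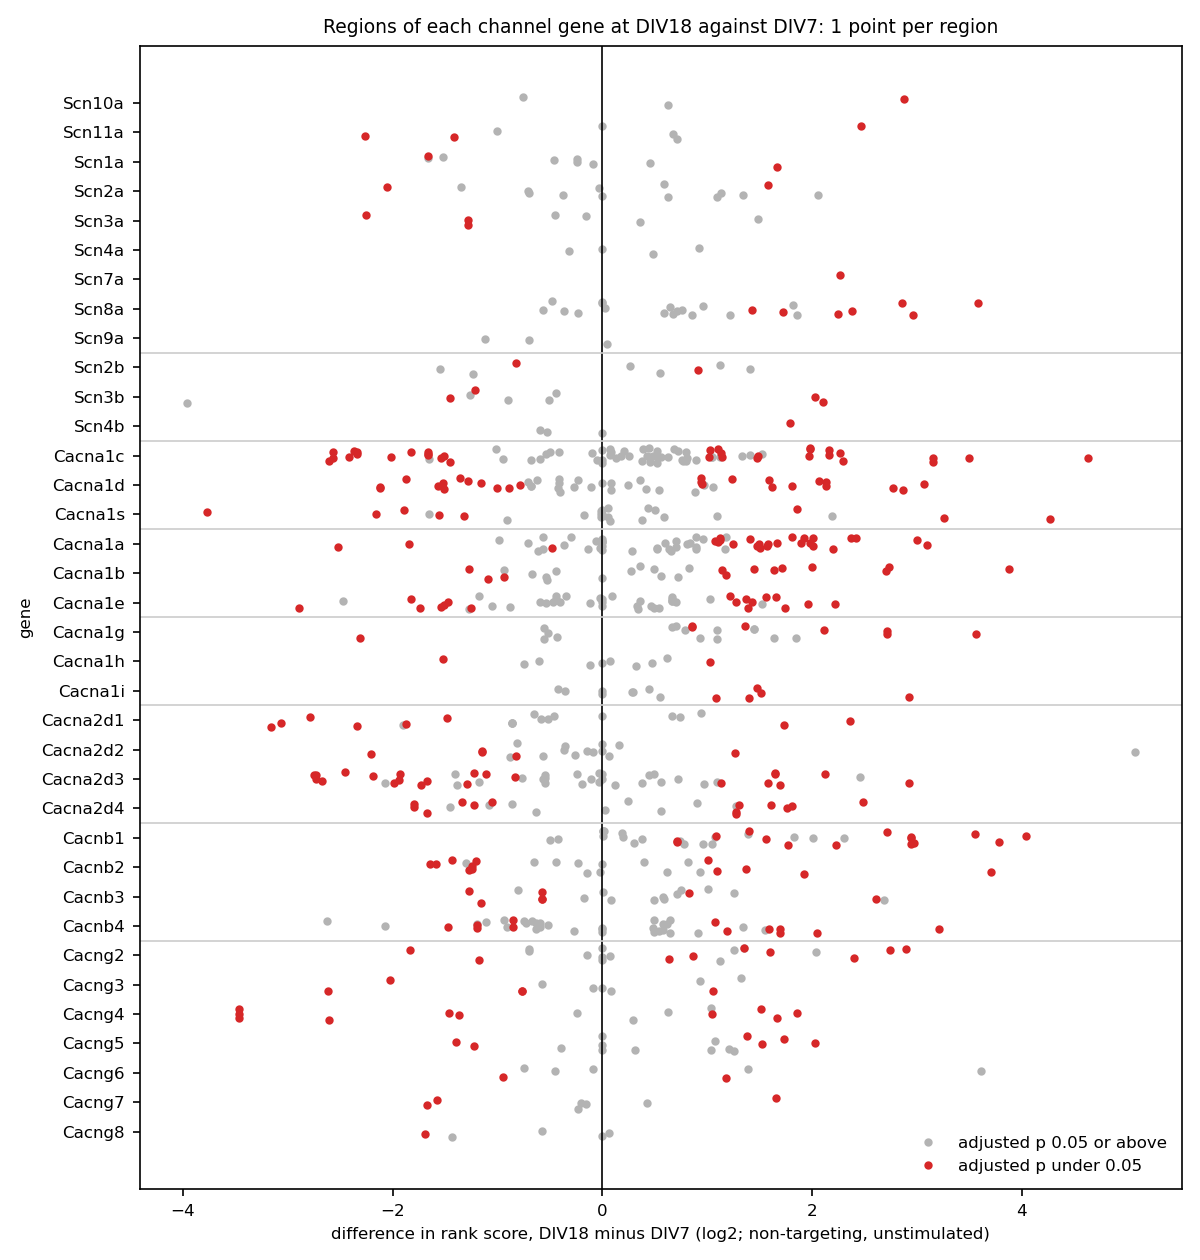
Difference in rank score between DIV18 and DIV7 (log2 scale, unstimulated NT neurons) of each tested channel region, by gene (rows, grouped by role); red points have an adjusted p under 0.05. Cacna1a has 23 regions higher and 3 lower, and Cacna2d3 7 higher and 15 lower, of 89 and 90 regions, tested or not. Over all tested regions 21.8% were higher and 19.4% lower.

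Genes that work with these channels were followed at their gene ends. Of 18 partners (ankyrin-G, FGF homologous factors, NALCN complex, RIM proteins, RGK and STAC proteins, calmodulins), 17 had such a region. After 30 min of KCl in DMSO, 16 of their 42 regions rose and 0 fell, against a gene-end background of 15.8% higher. The rises included Gem (1.06 ± 0.16), a GTP-binding protein that inhibits calcium channels, Rem2 (0.70 ± 0.08) of the same family, Stac (1.17 ± 0.19), Fgf14 (0.79 ± 0.10), which binds sodium channels, and Calm2 (0.74 ± 0.10). At DIV18 Calm2 (1.58 ± 0.22), Fgf14 (1.19 ± 0.22) and Stac (1.12 ± 0.24) rose after KCl, 5 of 44 regions in all, with 0 lower, against a gene-end background of 12.6% higher. Several of these regions belong to 1 gene and share an interval, so they are not independent. At 18 genes of calcium signalling downstream of the channels, 4 of 37 regions rose and 5 fell after 30 min of KCl in DMSO, with Crtc1 at 5.75 ± 1.33 and the Camk2b regions at −1.57 ± 0.28 and −0.57 ± 0.14, against gene-end backgrounds of 15.8% higher and 6.9% lower. At DIV18 2 of 36 rose, both at Creb1 (1.26 ± 0.38), against 12.6%. Regions of these lists, the large Crtc1 change included, were fitted by intervals only, with no ranking of summits and no library left out.

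Across the 11 main comparisons, 133 of 1041 channel regions tested in any were called in 3 or more, at 33 genes, 12.8% against 13.6% of all tested regions. The most was 6, at a region in Scn1a (chr2:66409254-66409753) and at the Cacna1a region that fell after KCl. The Scn1a region scored 2.48 and 2.52 after 30 min of KCl in DMSO, against 1.61 and 1.35 unstimulated. In NT neurons at DIV18 it scored 2.24 and 2.37 with KCl, against 0 and 0 unstimulated. These KCl scores come from the same interval as those of the Scn1a window at chr2:66408524-66409023, so they are not a separate result. The Cacna1a region was at 0 in all 8 FHT1015 libraries, and in the 4 KCl DMSO libraries, and scored 0.86 to 1.05 in the 4 unstimulated DMSO libraries, next to the lowest score that a held region can have. Its 4 calls in the drug experiment are therefore crossings of the limit of 75000 intervals, and its response to KCl with FHT1015 could not be seen. Several comparisons share libraries, so the number of calls at a region is not a number of independent results.

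**Figure D5:**
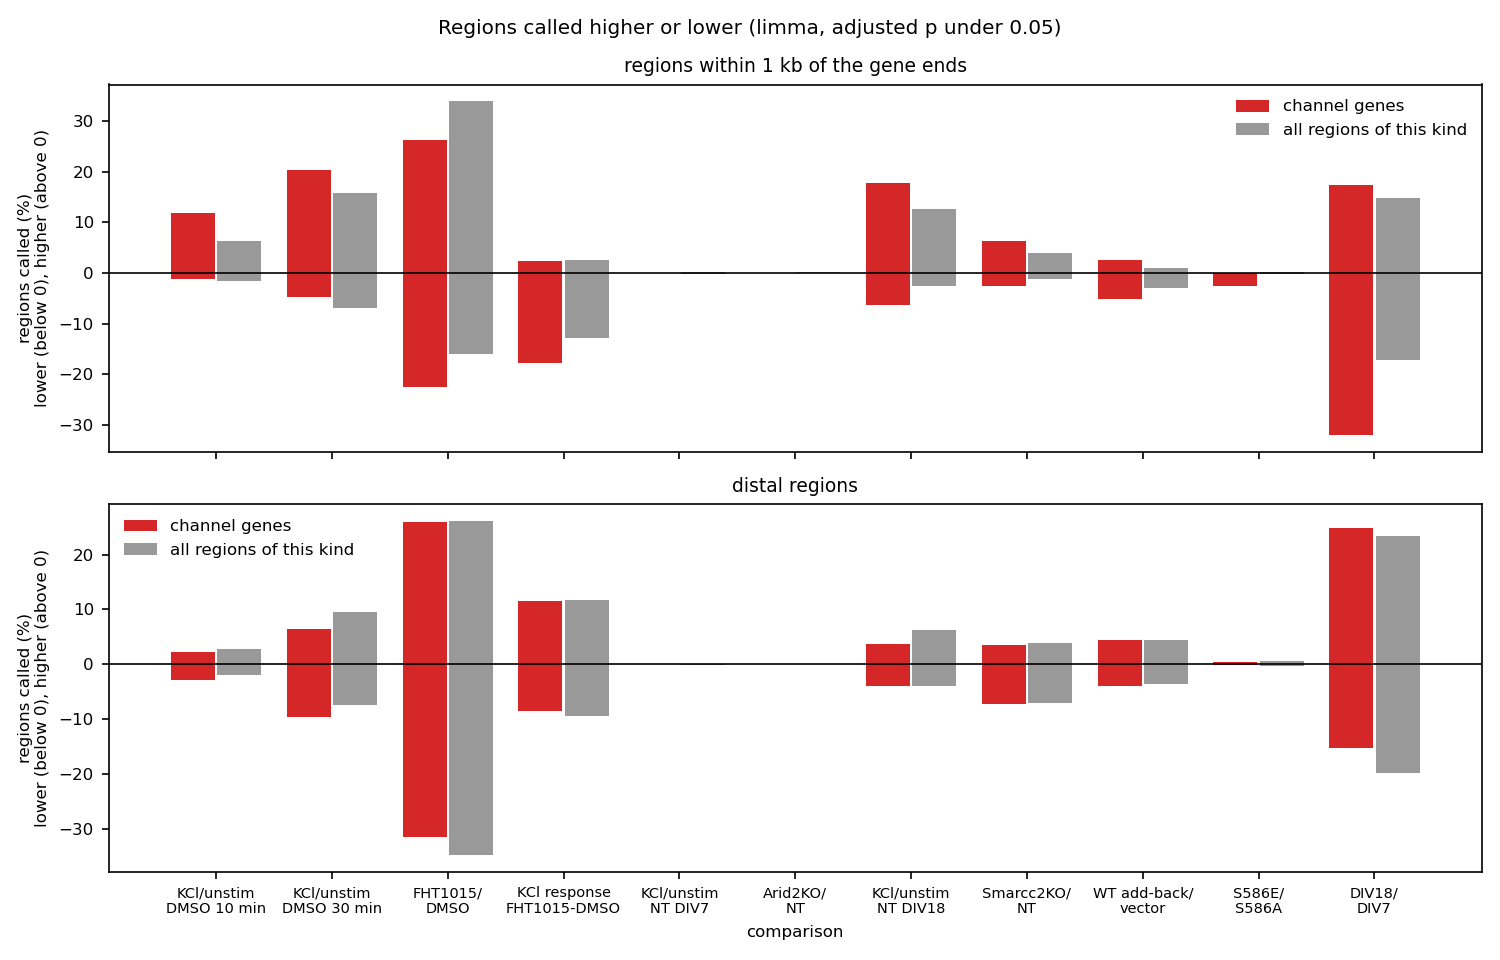
Share of regions called higher (above 0) and lower (below 0) in percent, at gene ends (top) and at distal sites (bottom), for channel genes (red) and all tested regions of the same kind (grey), in the 11 main comparisons. At gene ends, 10 of 84 channel regions were higher after 10 min of KCl in DMSO, against 6.28% of all gene-end regions, and 24 of 75 were lower at DIV18, against 17.2%.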

How the data were processed

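ATAC-seq peak lists of 44 libraries were used. Per the submitters' processing notes, the authors' tools were MACS2, Bowtie2, Trim Galore, FastQC, bedtools, Picard and SAMtools, and the build was mm10; versions and settings are not given in the sources used here. Each deposited list gives an interval's position, summit, score, fold enrichment (a ratio to background) and −log10 p and q per the file format. Position, summit and −log10 p were used, and the background pileup was estimated from the steps between fold values. Depth was unknown, so no counting interval is given. 

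Intervals on the 19 autosomes were ranked by −log10 p, the best 75000 were kept, and 500 bp regions were built on the best summits, giving 223337. Overlap of at least 1 bp counted. Regions held by at least 2 libraries of an experiment were tested (134791 in the drug, 105955 in the Arid2 and 136495 in the DIV18 experiment, 130472 across ages) with limma 3.58.1 in R 4.3.3 (lmFit and eBayes with trend, group means, Benjamini-Hochberg adjustment over all of them). The fit was checked on simulated scores.

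Named regions were, for each comparison, the up to 12 largest changes among those called both by intervals and with summits ranked one by one. Members, lists and comparisons were chosen with earlier results of these data known. Libraries of the same replicate number were not treated as pairs in the main fit. Alternatives changed the list length kept, the ranking, the overlap, the covariate, the block and the libraries. Promoters came from RefSeq; members without an entry included Scn3a, Cacna2d4, Cacna1a, Scn3b, Cacna1g, Cacng1, Cacng4 and Cacna1h. Values of a few items withheld here are not reported, though the counts over members include them.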

Additional observations from a re-analysis of the deposited data

Results flagged for a closer look

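At 17 channel regions, all among those named by size of change or by number of comparisons, the response to 30 min of KCl differed between FHT1015 and DMSO cultures by a test of that difference in limma (adjusted p at most 0.038). The response was higher with FHT1015 in 5 regions of Cacna2d3 (2.56, 1.96, 1.83, 1.76 and 1.14 on the rank score scale), in regions of Cacna2d2 (2.08 inside the gene and 1.93 upstream), in Cacna1b (2.06 and 1.62), in Cacna1g (2.33), near Cacng6 (1.68), near Cacng5 (1.19) and near Cacna1h at the Tekt4 end (0.95). At the Cacna2d3 region with 1.83 and at the Tekt4 end the score was 0 in all 4 FHT1015 libraries at 30 min, so the difference repeats the fall in DMSO and says nothing of a response under FHT1015. The response was lower with FHT1015 at the Scn4b 5′ end (−1.48), the Cacna2d2 5′ end (−1.21), a region in Scn8a (−1.62) and the Scn3b window that shared an interval with the gene end in DMSO libraries (−4.20, but 0.25 with an overlap of at least 50%). FHT1015 lists were shorter than DMSO lists with no overlap, and the part of list length in these differences was not tested beyond the fit with list length as a covariate. In that fit 11 of the 17 differences were called, among them −1.80 at Scn4b (adjusted p = 0.0055), −1.23 at Cacna2d2 (adjusted p = 0.035) and −3.76 at the Scn3b window. The other 6 were not called: Cacna1b (1.62 without the covariate, adjusted p = 0.193 with it), Cacna2d3 (1.96 and 1.14, adjusted p = 0.129 and 0.054), Cacng5 (0.137), Cacng6 (0.08) and Scn8a (0.07). An overlap of at least 50% left 12 of the 17 called; beside the Scn3b window, Cacna1g (adjusted p = 0.327), Cacna2d2 upstream (0.134), the Cacna2d3 region with 1.76 (0.138) and Scn8a (0.062) were not.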

How the results depend on the processing

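Counts of channel regions called moved as follows. With the best 30000 intervals they were 195 for FHT1015 (389 in the report), 51 for the difference in KCl response (139), 8 for KCl in NT neurons at DIV7 (0), 45 for KCl in NT neurons at DIV18 (74), 36 for Smarcc2KO (84), 30 for the WT add-back (67) and 140 for age (306). With list length as a covariate they were 25 for 10 min of KCl in DMSO (41), 13 for FHT1015, 45 for Smarcc2KO, 1 for S586E against S586A (6) and 0 for age. With summits ranked one by one they were 248 for FHT1015 and 92 for the difference in KCl response. Without regions of a mean score under 1, a choice made after seeing the data, they were 26, 246, 72, 3 and 183 for 10 min of KCl, FHT1015, the difference in response, S586E against S586A and age. Leaving out each library in turn gave 15 to 22 for 10 min of KCl, 73 to 88 for 30 min, 373 to 405 for FHT1015, 104 to 142 for the difference in response, 0 to 2 for KCl in NT neurons at DIV7, 0 to 2 for Arid2KO, 24 to 61 for KCl at DIV18, 38 to 89 for Smarcc2KO, 34 to 42 for the WT add-back, 1 to 13 for S586E against S586A and 216 to 242 for age. Deviations of libraries with the same replicate number had correlations from −0.06 to 0.21, and from 0.0019 to 0.206 in the DIV18 experiment. Whether replicate numbers mark a shared culture was not tested further. With the replicate block the counts were 48, 116, 394, 135, 0, 0, 82, 94, 76, 6 and 283, in the order of the leave-out counts. The split into higher and lower calls changed with summits to 93 and 155 for FHT1015, 18 and 61 for Smarcc2KO, 34 and 15 for the WT add-back and 140 and 67 for age.

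Of 126 results on single regions, 24 were called under every alternative and 72 without each single library. Signs turned in 6 cases, all with the cause not tested: with the covariate, windows near Cacna1s (0.38 and 0.091 under FHT1015), Cacng4 (2.20 under FHT1015), Cacna2d1 (0.026 under FHT1015) and Cacna1c (−1.54 with age), and with an overlap of at least 50%, the Scn3b window (0.25 for the difference in response). The number of reads behind each list is not known, so the depth behind a rank could not be assessed.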
